A study of Rattus norvegicus with 8 samples.

Results

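Microglial and myeloid genes were followed in laser-captured spinal motoneurons of Wistar albino rats at postnatal day 1 (P1) and postnatal day 21 (P21). The set holds 34 genes named as markers of microglia, macrophages and neutrophils, and every probe set whose only annotated symbol was one of them was taken. That gave 39 of the 31042 probe sets of the array, for 33 of the 34 genes, among 14217 genes with a probe set of a single symbol. Spi1, the gene of the myeloid transcription factor PU.1, had no probe set under this rule and is not analysed here. Motoneurons of the lumbar cord were collected during myelination (P1) and after its completion (P21). The rats came from 4 litters split over both ages, each array held a pool of 4 rats, and each age had 4 biological replicates on Affymetrix RAE230 2.0 arrays. The labels name no treatment or altered allele. Cells were chosen under the microscope by a Nissl stain, so what else a capture spot took in was not controlled by a marker.

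Microglia are the resident macrophages of the central nervous system. They depend on signalling through the receptor CSF1R, sense neurons through CX3CR1 and P2RY12, make complement C1q, which tags material for removal, and engulf it into lysosomes. Receptors such as TREM2 and the Fc receptors signal through the small adaptors TYROBP and FCER1G. Neutrophils, which circulate in blood and mature in bone marrow, carry the calcium-binding pair S100A8 and S100A9 and granules with lysozyme and defensins.

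The motoneuron identity of the pools was read first, from 7 marker genes. Chat, which makes acetylcholine, was called higher at P21 (1377 to 3451 in mean intensity, adjusted p = 8.66e-05), and Isl1, a transcription factor of motoneuron identity, was called lower (790 to 239.8, adjusted p = 4.91e-04). The other 5 were not called, among them Slc5a7, the choline transporter gene, at 4698 ± 379 (SD, n = 4) and 5003 ± 336. Of 10 oligodendrocyte genes measured, 9 were called higher at P21 (22.1% of all tested genes were), and their summed intensity was 9318 to 11362 on the P1 arrays and 37552 to 39923 on the P21 arrays. These are genes of a glial cell that was not the target of the capture. In pooled captures fewer cells of a type and less RNA per cell cannot be told apart. An array's filter level, under which Isl1 lay on 3 of the P21 arrays, is the 40th percentile of its intensities, which lay between 221 and 287, and a probe set was tested if it exceeded that level on at least 4 of the 8 arrays. Array medians lay between 323 and 416.

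Of the 39 myeloid probe sets, 18 passed the filter, 1 for each of 18 genes, and 21 did not. A probe set high at only 1 age passes through that age, so the counts that follow describe the tested probe sets and not the whole set. A call is an adjusted p under 0.05 in limma's test across all tested probe sets. At P21, 11 of the 18 were called higher, where 20.8% of all tested probe sets were, and 3 were called lower, where 17.4% were. The other 4 were not called. In 10 of the 18 all P21 intensities lay above all P1 intensities (20.4% of all tested probe sets), and in 3 they lay below (17.7%). Over all 39 myeloid probe sets, tested or not, the median change was 0.30 (log2 of P21 over P1), beside 0.06 for all probe sets of the array. With array medians set equal those values became 0.16 and -0.07, and 10 were called higher. Without P21 replicate 4, an array that read high for several of these genes, 8 were called higher and 3 lower when the filter was taken anew, since Tyrobp, Lcp2 and S100a9 then failed it. On the probe sets that passed with all 8 arrays, a fit added after seeing the data, the same 11 were called higher and the same 3 lower without that array. Values given without P21 replicate 4 come from that fit. The median over the 39 was then 0.28.

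**Figure D1:**
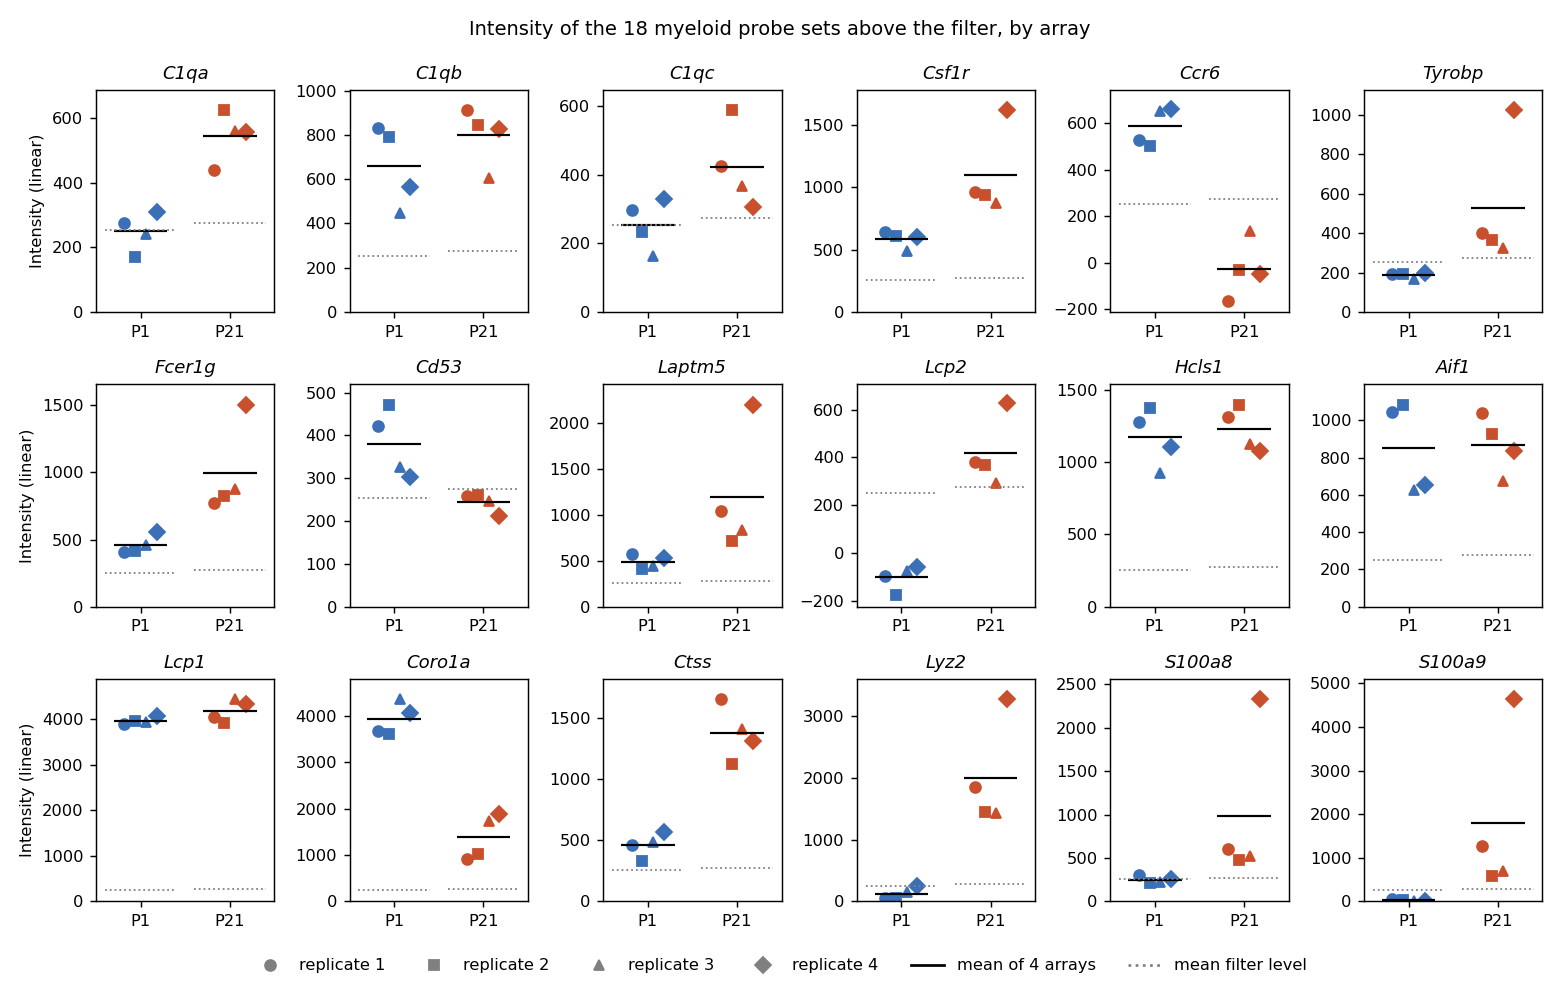
Linear intensity on each array for the 18 myeloid probe sets that passed the filter, with P1 in blue and P21 in red, a marker shape for each replicate number, a black line for the mean of 4 arrays and a dotted line for the mean filter level. Replicate 4 at P21 stands above the other P21 arrays in Csf1r, Tyrobp, Fcer1g, Laptm5, Lyz2, S100a8 and S100a9, and not in C1qa, C1qb, C1qc or Ctss.

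The promoter sequences of 22 of the 34 genes were found in a RefSeq table of the GRCr8 assembly. In the 250 bases before the annotated start, the letters GAGGAAG, the core of sites bound by PU.1, were found on either strand in 9 of the 22 (40.9%), against 10.2% of the 33469 promoters of the table. The AP-1 letters TGANTCA, searched in the same way, were in 2 of the 22 (9.09%) against 6.34%, and matches of the 2 motifs could have overlapped. The 9 were those of Csf1r, Trem2, Itgam, Cd14, Mrc1, Ccr6, Cd53, Laptm5 and Ctss, so promoters with the PU.1 letters belonged to genes called higher, to genes called lower and to genes under the filter level. To show genes that moved in each direction, the 250 bases are given for Ctss and Laptm5, which rose and had a match, Cd53, which fell and had a match, and Lyz2 and S100a9, which rose and had no match. Capitals mark a match, which in these 3 promoters lies on the opposite strand. A match is a run of letters in this window and does not show that a factor binds there.

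Ctss (chr2:185775146-185775395, + strand, match from position -16): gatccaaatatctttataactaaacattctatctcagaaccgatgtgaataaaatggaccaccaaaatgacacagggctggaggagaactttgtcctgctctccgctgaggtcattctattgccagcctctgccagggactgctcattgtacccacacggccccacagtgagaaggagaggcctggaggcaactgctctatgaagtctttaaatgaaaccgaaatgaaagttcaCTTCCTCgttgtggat
Laptm5 (chr5:148371630-148371879, + strand, match from position -64): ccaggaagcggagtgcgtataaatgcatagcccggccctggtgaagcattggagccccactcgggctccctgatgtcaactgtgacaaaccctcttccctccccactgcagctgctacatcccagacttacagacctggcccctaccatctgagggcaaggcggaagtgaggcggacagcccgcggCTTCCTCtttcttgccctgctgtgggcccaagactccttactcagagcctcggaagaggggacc
Cd53 (chr2:197087897-197088146, - strand, match from position -45): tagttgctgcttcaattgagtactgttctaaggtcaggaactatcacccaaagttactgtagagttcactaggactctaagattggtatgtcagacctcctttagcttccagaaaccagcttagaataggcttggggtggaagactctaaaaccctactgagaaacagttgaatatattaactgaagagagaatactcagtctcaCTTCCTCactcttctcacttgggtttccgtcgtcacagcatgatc
Lyz2 (chr7:54798012-54798261, - strand): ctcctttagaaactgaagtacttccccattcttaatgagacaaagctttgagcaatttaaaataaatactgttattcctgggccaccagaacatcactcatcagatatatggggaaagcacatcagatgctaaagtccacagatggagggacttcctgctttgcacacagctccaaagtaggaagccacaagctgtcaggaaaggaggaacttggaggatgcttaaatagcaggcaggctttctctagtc
S100a9 (chr2:178490623-178490872, - strand): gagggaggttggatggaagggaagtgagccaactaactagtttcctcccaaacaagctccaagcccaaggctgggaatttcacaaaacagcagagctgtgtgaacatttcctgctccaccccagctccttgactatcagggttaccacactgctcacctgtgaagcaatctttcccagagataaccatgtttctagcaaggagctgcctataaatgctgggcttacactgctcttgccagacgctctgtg

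Among the secreted effectors both calprotectin genes rose. S100a9 encodes a subunit of calprotectin, the main cytosolic protein of neutrophils. Its intensities were 59.2, 30.4, 9.53 and 17.0 on P1 replicates 1 to 4 and 1263, 582, 706 and 4640 on P21 replicates 1 to 4. All P1 arrays lay under the filter level and all P21 arrays above it, and P21 replicate 4 read 5.46 times the mean of the other P21 arrays. The change was 4.93 ± 0.60 (log2 ± SE, adjusted p = 1.83e-04), a rise of at least 4.73-fold against the filter level. Without P21 replicate 4 the change was 4.31 (adjusted p = 6.61e-05) and the bound was 3.07-fold, so that array moved the bound by over 1.5 times.

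S100a8, the partner subunit, read 306, 212, 219 and 255 at P1 and 603, 478, 519 and 2328 at P21. The ages did not overlap, and P21 replicate 4 was again far above the rest, at 4.37 times the mean of the other P21 arrays. Of the 4 P1 arrays 2 were above their filter level. S100a8 rose by 1.59 ± 0.44 (adjusted p = 0.0173), or by 1.06 (adjusted p = 7.27e-04) without that array, at least 2.81-fold and 1.95-fold with P1 values under the filter level set to it. The chemokine gene Ccl3 lay between 95.6 and 146 on the 8 arrays, under the filter level on each, and no change was read from it.

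Among the lysosomal genes, Lyz2, which encodes lysozyme, the enzyme that cuts bacterial cell walls, read 51.8, 51.5, 146 and 246 at P1 and 1854, 1455, 1427 and 3278 at P21. P1 replicate 4 was the only P1 array above its filter level, and every P21 array was several times higher than every P1 array. With the P1 arrays under the filter level set to it, the rise was at least 7.04-fold, or 5.86-fold without P21 replicate 4, which read 2.08 times the mean of the other P21 arrays. The fitted change was 4.01 ± 0.45 (adjusted p = 1.10e-04).

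Ctss encodes cathepsin S, a protease that phagocytes use to process the invariant chain. It read 461, 328, 482 and 564 at P1 and 1650.2, 1121, 1405 and 1307 at P21, with no overlap. The rise was 1.56 ± 0.17 (2.94-fold, adjusted p = 1.02e-04), and here P21 replicate 4 did not stand apart (0.939 times the mean of the other P21 arrays). Cd68, a lysosomal membrane protein of macrophages, passed the filter level on 1 array, P21 replicate 4, where it read 382, while the other 7 intensities ran from -163 to 181.

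The complement genes C1qa, C1qb and C1qc encode the 3 chains of C1q, the recognition molecule that starts the classical cascade, and in the brain microglia are its main source. C1qa read 277, 169.7, 241 and 309 at P1 and 440.2, 626, 562 and 556 at P21, and it rose by 1.10 ± 0.18 (adjusted p = 0.00102), with 1 P1 array under the filter level. C1qc read 296, 232, 163 and 328 at P1 and 427, 589, 367 and 308 at P21, where 1 P21 array lay below the highest P1 array. Its change of 0.70 ± 0.24 was called at an adjusted p of 0.0431, a call that was lost in 14 of 26 settings (adjusted p of 0.0571 to 0.111 in those), among them centring, quantile normalization and leaving out P1 replicate 2 or 3 or P21 replicate 1, 2 or 3.

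C1qb read 829, 789, 448 and 566 at P1 and 913, 847, 604 and 827 at P21, so the ages overlapped, and its change of 0.30 ± 0.21 was not called (adjusted p = 0.288). At both ages replicates 1 and 2 read above replicate 3, and with the replicate number as a block the adjusted p of C1qb was 0.0537. None of the 3 genes read high on P21 replicate 4, with ratios of 1.02 (C1qa), 1.05 (C1qb) and 0.667 (C1qc) to the mean of the other P21 arrays.

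The surface receptors grouped here as those of resident microglia lay mostly under the filter level. Csf1r, the receptor for CSF1 and IL-34 on which microglia depend, was the only one of the 5 in this group that passed. It read 645, 612, 487 and 602 at P1 and 965, 937, 875 and 1619.8 at P21 and rose by 0.85 ± 0.19 (1.80-fold, adjusted p = 0.00627). Without P21 replicate 4, which read 1.75 times the mean of the other P21 arrays, the rise was 0.65 (1.57-fold, adjusted p = 0.00326).

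Cx3cr1, the fractalkine receptor gene, read 83.6 to 176 at P1 and 175 to 225 at P21, under the filter level on all 8 arrays. P2ry12, the purinergic receptor by which resting microglia sense nucleotides, lay under it on all P21 arrays with both of its probe sets, at 167 to 231 and at 103 to 169.9. The first of these 2 P2ry12 probe sets exceeded it on 1 array, P1 replicate 1, at 285. Trem2, a lipid-sensing receptor, read 58.3 to 187 on the 8 arrays over its 2 probe sets and was under the level throughout. Gpr34, a lysophospholipid receptor of microglia, exceeded it on 1 array, P21 replicate 2, at 327. Values under the filter level give no fold, so no change at either age was read from these 4 genes.

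**Figure D2:**
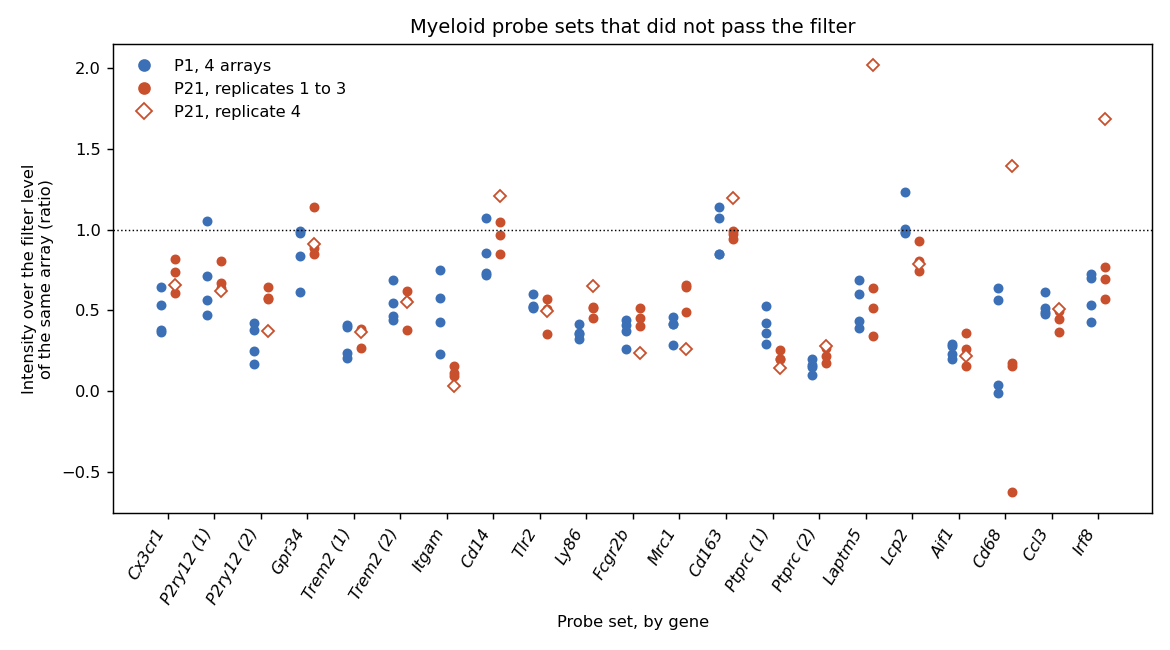
Intensity divided by the filter level of the same array for the 21 myeloid probe sets that did not pass the filter, with P1 in blue and P21 in red and P21 replicate 4 as an open diamond. Most points lie under the dotted line at 1, and P21 replicate 4 is the only P21 array above it in Laptm5 (553), Cd68 (382) and Irf8 (462 in intensity).

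Receptors shared by wider groups of phagocytes were likewise dim. Itgam, the integrin chain CD11b, Tlr2, which senses bacterial lipoproteins, Ly86, the partner of a Toll-like receptor relative, Fcgr2b, the inhibitory Fc receptor, and Mrc1, the mannose receptor of border macrophages, lay under the filter level on all 8 arrays. Cd14, a coreceptor for endotoxin, and Cd163, the haemoglobin scavenger receptor, exceeded it on 3 arrays each. In a fit of all probe sets without the filter, 5 of the 21 dim probe sets were called, 3 higher and 2 lower, and all 5 lay under the filter level on every array. Itgam was one called lower, with 64.4 to 166 at P1 and 9.25 to 41.8 at P21. Ly86 was called higher (0.58, adjusted p = 0.0266), at 76.9 to 118 at P1 and 124 to 178 at P21. So was 1 probe set of P2ry12 (0.87, adjusted p = 0.0384), while its other probe set was not called (0.13, adjusted p = 0.761). The 2 probe sets of Ptprc, the pan-leukocyte phosphatase CD45, were called in opposite directions there (-0.70 and 0.57), at intensities of 27.98 to 116 on all arrays.

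Ccr6, the receptor for the chemokine CCL20, went the other way from most of the tested myeloid probe sets. It read 528, 500.4, 653 and 662 at P1 and -164, -30.9, 137 and -50.2 at P21, so every P1 array was above the filter level and every P21 array below it. The fall was at least 2.06-fold against that level (fitted change -4.41 ± 0.66, adjusted p = 6.09e-04), with 3 of the 4 P21 values below 0. Those 3 entered the fit as 0, so the SE and adjusted p do not carry the spread among them.

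Both ITAM-bearing adaptors rose. Tyrobp, the partner of TREM2, read 192, 193, 165 and 198 at P1 and 403, 365, 325 and 1025 at P21, and it rose at least 1.82-fold (change 1.27 ± 0.31, adjusted p = 0.00929). Fcer1g, the common gamma chain of Fc receptors, read 405, 417, 456 and 555 at P1 and 772, 823, 880.4 and 1506 at P21. It rose by 1.05 ± 0.20 (2.07-fold, adjusted p = 0.00296). Neither gene overlapped between ages, and P21 replicate 4 was the highest array in both, at 2.81 and 1.83 times the mean of the other P21 arrays. Without it Tyrobp rose by 0.90 (adjusted p = 4.30e-04) and Fcer1g by 0.84 (adjusted p = 0.00132).

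Laptm5, a lysosomal membrane protein of blood cells, read 574, 411, 442 and 526 at P1 and 1037, 717, 835 and 2197 at P21, a rise of 1.13 ± 0.30 (2.20-fold, adjusted p = 0.0153) that was 0.80 (1.74-fold, adjusted p = 0.00545) without P21 replicate 4. Its second probe set, under the filter level on the other 7 arrays, read 553 on P21 replicate 4, so both probe sets singled out that array. Lcp2, the scaffold SLP-76 of leukocyte signalling, read from -178 to -58.0 at P1 and 379, 369, 294 and 626 at P21, a rise of at least 1.56-fold (change 4.70 ± 0.19, adjusted p = 3.69e-07). All its P1 values were below 0 and entered the fit as 0, so that SE and adjusted p carry no spread between P1 arrays. The second probe set of Lcp2 read 216 to 291 at P1 and 213 to 244 at P21 and did not pass the filter, so the gene's rise rests on 1 of 2 probe sets.

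Cd53, a tetraspanin of leukocytes, read 422, 472, 326 and 304 at P1 and 258, 261, 247 and 211 at P21. All P21 arrays were below their filter level, and the fall was at least 1.34-fold (change -0.59 ± 0.15, adjusted p = 0.0108). Hcls1, a cortactin relative of blood cells, read 924 to 1371 at P1 and 1078 to 1397 at P21, and its change of 0.08 ± 0.14 was not called (adjusted p = 0.704).

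Of the 3 cytoskeletal genes 1 was called, and it fell. Coro1a, coronin 1A, an actin regulator of leukocytes that neurons also express, read 3662, 3604, 4358 and 4063 at P1 and 924, 1017, 1727 and 1876 at P21. It fell by 1.55 ± 0.22 on the log2 scale (2.94-fold lower, adjusted p = 4.98e-04), with no overlap. Lcp1, the actin bundler L-plastin, read 3895 to 4065 at P1 and 3908 to 4443 at P21 (change 0.08 ± 0.08, adjusted p = 0.505). Aif1, the calcium-binding protein IBA1 used to stain microglia, read 626 to 1084 at P1 and 676 to 1041 at P21 on the probe set that passed (change 0.06 ± 0.21, adjusted p = 0.848), while its other probe set was under the filter level on all 8 arrays. Of the transcription factors only Irf8 could be read, and it passed the filter level on P21 replicate 4 alone (462, against 116 to 212 on the other arrays).

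**Figure D3:**
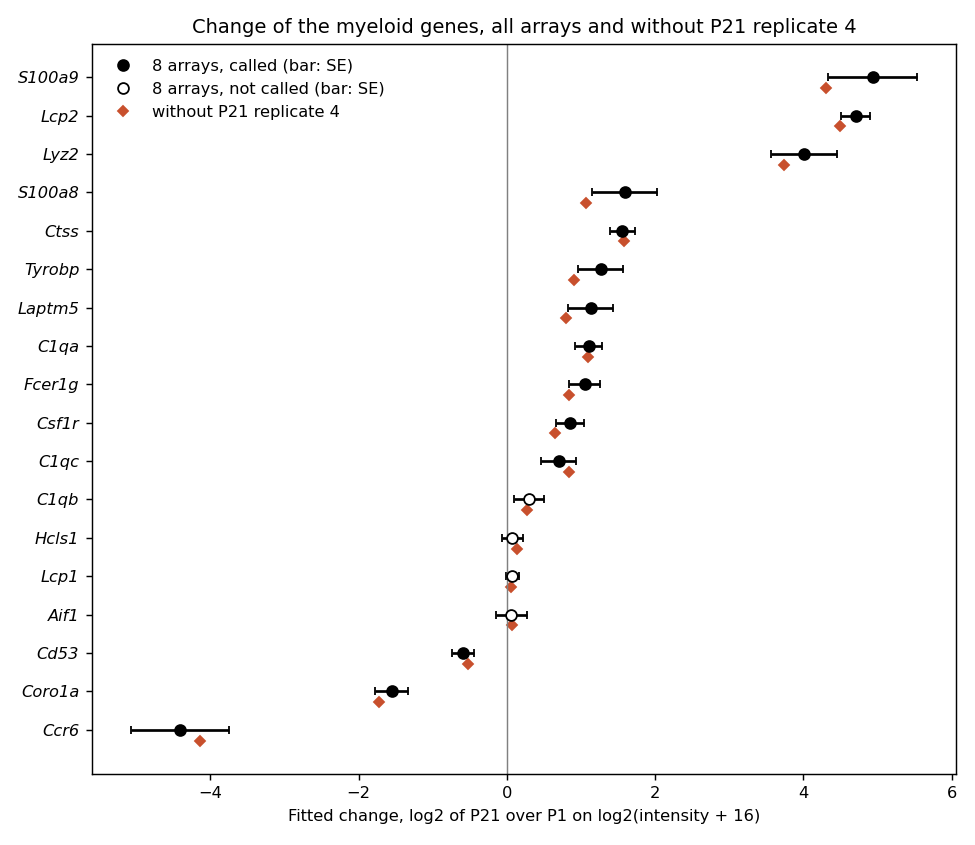
Fitted change for the 18 tested myeloid genes, as log2 of P21 over P1 on log2(intensity + 16), with filled circles for called genes, open circles for genes not called, bars for the SE, and diamonds for the fit without P21 replicate 4. The diamonds of S100a9, S100a8, Tyrobp and Laptm5 lie left of the circles and stay above 0, at 4.31, 1.06, 0.90 and 0.80.

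The genes split in how they read on P21 replicate 4. That array was at least 1.5 times the mean of the other P21 arrays in 9 of the 18 tested myeloid probe sets, against 3.04% of all tested probe sets. It was known to read high in these genes before the count was made, so the count is a description and no independent evidence. The 9 were 8 of the 11 genes called higher (S100a9, S100a8, Tyrobp, Laptm5, Lyz2, Fcer1g, Lcp2 and Csf1r) and Coro1a, which fell with age and read 1.53 times the mean of the other P21 arrays. The remaining 3 genes called higher were C1qa, C1qc and Ctss. Across all tested probe sets P21 replicate 4 was the highest P21 array in 31.6% and P21 replicate 3 in 33.2%, so the array was not high throughout. Among the 18, P21 replicate 4 was the highest P21 array in 9, and P1 replicate 4 was the highest P1 array in 9 (27.9% of all tested probe sets). P1 replicate 4 reached 1.5 times the mean of the other P1 arrays in 1 of the 18. Array by array, the median deviation of the 39 myeloid probe sets from their P1 means was 0.33, 0.43, 0.20 and 0.36 on P21 replicates 1 to 4, so the median did not set replicate 4 apart.

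**Figure D4:**
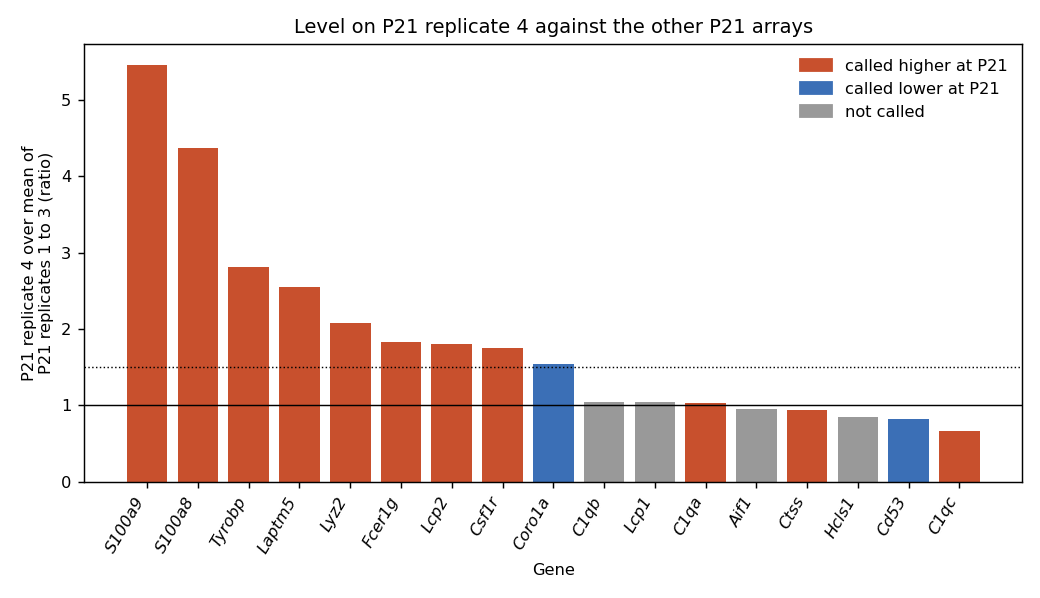
Ratio of the intensity on P21 replicate 4 to the mean of P21 replicates 1 to 3 for the tested myeloid genes (Ccr6, whose mean was below 0, left out), with red for genes called higher at P21, blue for lower and grey for not called. The ratio runs from 5.46 in S100a9 to 0.667 in C1qc, and 9 genes reach the dotted line at 1.5.

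Other genes of neutrophils were read from a list of 18, of which 9 had a probe set and 4 passed the filter. The defensin genes Np4 and Defa5, granule peptides that kill microbes, were called higher (22.1% of all tested genes were), and the other 2 tested genes, Lcn2 and Padi4, were not called. Both defensins lay under the filter level on every P1 array, so they passed the filter through P21 alone. Np4 read 144 to 234 at P1 and 2138, 547, 1171 and 2541 at P21 (change 2.80 ± 0.42, adjusted p = 6.11e-04). Defa5 read 167 to 267 at P1 and 1928, 316, 1077 and 2979 at P21 (2.47 ± 0.56, adjusted p = 0.00691). Both were lowest on P21 replicate 2 and highest on replicates 1 and 4. On P21 replicate 4, 5 of the 9 genes read at least 1.5 times the mean of the other P21 arrays, namely both defensins and 3 genes that were not called or not tested: Lcn2 at 2038 against 240.1 to 313 on the other P21 arrays, Camp at 1890.5 against 169 to 417, and Mmp9 at 1032 against 83.2 to 150.2. The other 4 did not. Padi4, a histone-modifying enzyme, and Mmp8, a collagenase, read 0.847 and 1.06 times that mean, and the receptor genes Cxcr2 and Csf3r lay under the filter level on all arrays. Summed over the list, intensity was 1343 to 2376 at P1, 3140 to 5994 on P21 replicates 1 to 3 and 11560 on P21 replicate 4.

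Homeostatic microglial genes outside the set were few above the filter. Of 11 with a probe set 4 passed, and Mef2c, a transcription factor that neurons also use, was the 1 called higher (1.44 ± 0.16). That 1 of 4 is near the 22.1% of all tested genes called higher. Tmem119, a surface protein of resident microglia named here after its values were seen, read 62.2 to 91.9 at P1, 107 to 168 on P21 replicates 1 to 3 and 753 on P21 replicate 4. In this list P21 replicate 4 was the highest P21 array in 9 of the 11 genes. It read at least 1.5 times the mean of the other P21 arrays in 2 of them, Tmem119 and Runx1. The list's summed intensity was 2545 to 2737 at P1, 3884 to 3968 on P21 replicates 1 to 3 and 5567 on replicate 4. Mef2c gave 446 to 666 of that sum at P1, 1243 to 1493 on P21 replicates 1 to 3 and 1848 on replicate 4. The sum is therefore not a measure of microglia alone. Of 10 border macrophage genes 2 passed, too few to set against that share, and Pf4, a chemokine of those cells and of platelets, rose (1.76 ± 0.44, adjusted p = 0.0109). Pf4 read 187, 183, 355 and 808 at P1 and 1207, 781, 925 and 1737 at P21, so the ages overlapped. Of its P1 arrays 2 were above their filter level, and P21 replicate 4 read 1.79 times the mean of the other P21 arrays. Of 5 tested lymphocyte genes 2 were called, both lower (17.4% of all tested genes were).

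Markers of other cells did not move one way on P21 replicate 4. The collagen genes Col1a1 and Col1a2 read 8626 and 8464 on P21 replicate 4. That was 2.43 and 3.05 times the mean of the other P21 arrays. Col5a1, Lum and Fn1 of the same list read 2.24, 1.49 and 1.33 times that mean. Ptgds, Igf2, Igfbp2 and Col3a1 read 0.144, 0.45, 0.551 and 0.811 times it. The 12 fibroblast and meningeal genes summed to 14517 to 22680 at P1, 27995 to 34010 on P21 replicates 1 to 3 and 36142 on replicate 4. Without Col1a1 and Col1a2 the other 10 summed to 22881 to 26706 on P21 replicates 1 to 3. That sum was 19052 on replicate 4, the lowest of the 4. Ptgds gave 4596, 5258 and 7288 of the sums on P21 replicates 1 to 3 and 821 on replicate 4. The low place of replicate 4 in this sum depends on Ptgds. The 14 endothelial and pericyte genes summed to 8064 to 9181 at P1 and 10694 to 15837 on P21 replicates 1 to 3. Their sum on replicate 4 was 9310. Erythrocyte genes summed to 3773 to 9136 at P1 and were lowest among the P21 arrays on replicate 4 (10769, against 13438 to 14110). Without Hbb, a globin gene, the other 6 summed to 1428 to 1889 at P1 and 4601 to 5306 on P21 replicates 1 to 3. Their sum on P21 replicate 4 was 4968, within the range of the other P21 arrays. Of 5 tested erythrocyte genes 3 were called higher (22.1% of all tested genes were). The part of these other cells in the myeloid levels was not tested.

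**Figure D5:**
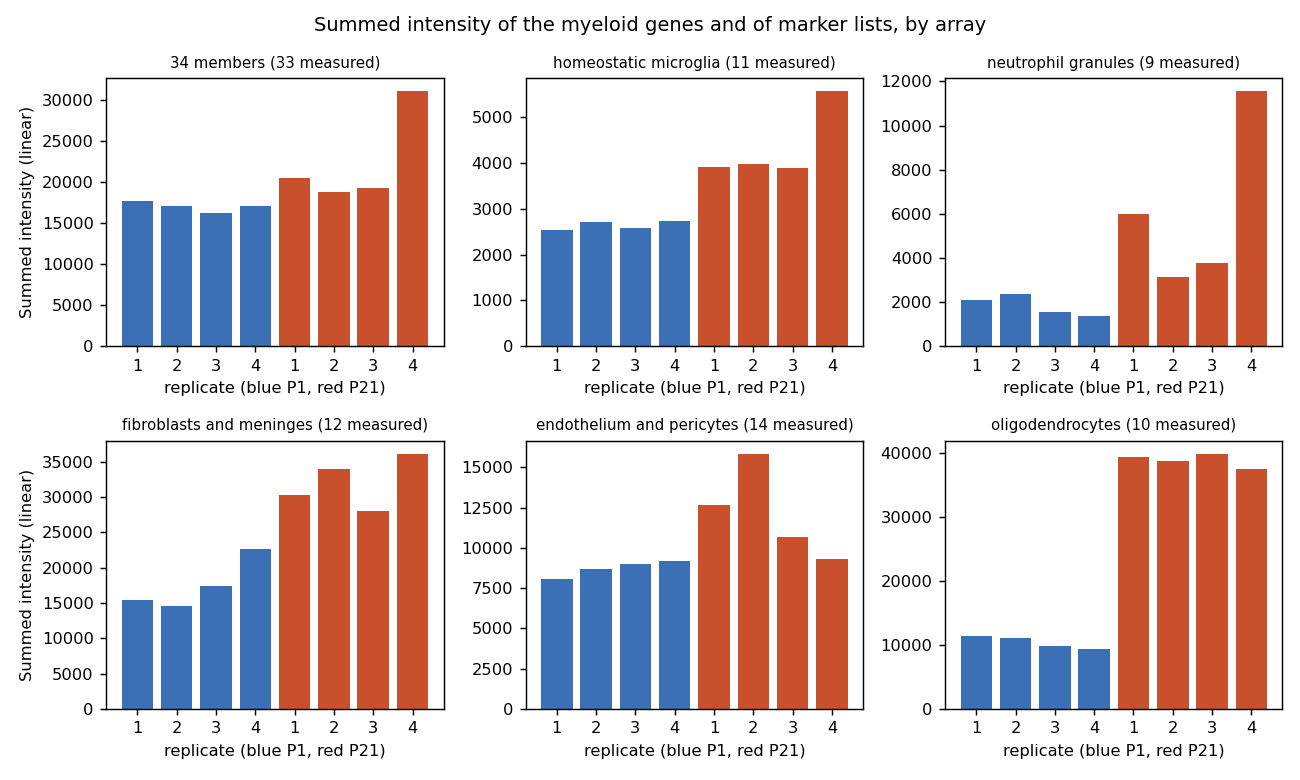
Summed linear intensity on each array, with negative values counted as 0, for the myeloid genes and 5 marker lists, P1 in blue and P21 in red. The myeloid genes and the neutrophil granule list are highest on P21 replicate 4 (31049 and 11560). So are the homeostatic microglia list (5567) and, by less, the fibroblast and meningeal list (36142). The endothelial list is lowest there among the P21 arrays (9310), and the oligodendrocyte list is nearly level across the P21 arrays.

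Counts of related genes are read against all tested genes, of which 22.1% were called higher and 17.4% lower. Of 7 other complement genes tested 4 rose and 3 were not called. C1s, a protease of the C1 complex, read 331 to 384 at P1 and 1954 to 2208 at P21 (2.43 ± 0.09, adjusted p = 2.19e-07). Its partner protease C1r rose at least 2.47-fold, the C1 inhibitor gene Serping1 at least 3.03-fold (2.09 times the mean of the other P21 arrays on replicate 4), and Cfi, which inactivates C3b, by 0.94 ± 0.25. These genes are not particular to microglia. The receptor genes C5ar1 and Itgb2 were tested and not called. In signalling below the ITAM adaptors 1 of 8 tested genes was called, Skap2, which was lower (-0.45 ± 0.09). Of 9 genes of Toll-like receptor signalling and cytokines, 3 rose and 2 fell, which is not far from those shares, with Ly96, the endotoxin-binding partner of TLR4, at 0.94 ± 0.21, Nfkb1 at 0.79 ± 0.11, Traf6 at 0.59 ± 0.12 and Ccl2 at -0.63 ± 0.19.

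Of 13 tested genes for signals that pass between neurons and microglia 4 were called higher and 3 lower, near the shares over all tested genes (22.1% and 17.4%). Sema4d, a membrane semaphorin, rose at least 3.51-fold (change 1.99 ± 0.20, adjusted p = 4.98e-05). Il34, a neuronal ligand of CSF1R, read 314 to 363 at P1 and 1197, 1105, 1113 and 738 at P21 and rose by 1.53 ± 0.15 (adjusted p = 4.80e-05). Csf1, the other ligand, read 1344 to 1829 at P1 and 1490 to 1812 at P21 and was not called (0.06 ± 0.13). Cx3cl1, the neuronal fractalkine that binds CX3CR1, fell from 2592 ± 222 to 1794 ± 234 (-0.53 ± 0.12, adjusted p = 0.00595). Cd200, a neuronal surface ligand that restrains microglia, named after its values were seen, fell from 5154 ± 82.9 to 3583 ± 238 (-0.52 ± 0.09, adjusted p = 0.00102). Pros1, a ligand of the phagocytic receptor MERTK, rose by 0.61 ± 0.12.

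Of 15 tested phagocyte lysosome genes 6 were called higher and 2 lower, beside 22.1% and 17.4% of all tested genes. Spp1, osteopontin, which motoneurons also make, read 846 ± 246 at P1 and 3572 ± 146 at P21 (2.10 ± 0.18), and Ctsz, a cathepsin, rose at least 1.94-fold and read 2.44 times the mean of the other P21 arrays on replicate 4. Lipa, lysosomal acid lipase, rose by 0.76 ± 0.09, and Cd63, a tetraspanin of late endosomes, fell by 0.73 on the log2 scale. In class II presentation 5 of 8 genes rose and 3 were not called, with Cd74, the invariant chain that cathepsin S cuts, at least 1.78-fold.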

How the data were processed

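The authors deposited 1 table of linear probe set intensity for 8 arrays; probe summary and normalization are not given in the sources used here. Gene symbols came from the annotation of the array platform. Intensities under 0 were set to 0, and log2(intensity + 16) was fitted in R 4.3.3 with limma 3.58.1 (lmFit, eBayes), P21 against P1 over all 8 arrays with no covariate, on the 19155 probe sets above the 40th percentile of their array on at least 4 arrays, with Benjamini-Hochberg adjustment over them. The fit was tested on simulated data. The added 16 shrinks changes of dim genes. Where an age read near or under 0, as in Lcp2, Ccr6 and S100a9, the fitted size depends on that 16 and is not a measured fold. "At least" folds set the dimmer age, array by array, to its filter level where it was lower. List counts use the tested probe set of highest mean intensity per gene (10961 genes).

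Deviations of same-numbered arrays from their age mean correlated at 0.514, 0.321, 0.558 and 0.15, each above 0.1, which met the criterion set for pairing, although P1 replicate 4 correlated more with P21 replicate 3 (0.366). Printed values come from the fit without pairing, and the fit with it is an alternative.

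Every member with a tested probe set was described, and at most the 4 called genes of largest change per related list were named; other genes of those lists were named after their values were seen. Members and lists were chosen with earlier results of these data known. Alternatives were other scalings, pseudocounts, filters, array weights, the replicate block and leaving out arrays. The number of arrays limits precision.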

Additional observations from a re-analysis of the deposited data

Results flagged for a closer look

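Among 36 groups of 4 arrays (18 tested probe sets at 2 ages), 5 held an array whose gap to its nearest neighbour, as a share of the group's range, exceeded Dixon's critical value. Chance flags about 1 in 20 groups, but this array was known to read high in these genes before the count was made, so the count is no independent evidence. All 5 were the high value of P21 replicate 4, at 1619.8 in Csf1r, 1025 in Tyrobp, 1506 in Fcer1g, 2328 in S100a8 and 4640 in S100a9. Genes that read high on 1 array are not independent of each other. All 5 stayed called higher without that array on the same probe sets, with changes of 0.65, 0.90, 0.84, 1.06 and 4.31.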

How the results depend on the processing

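Of the 14 calls among the myeloid probe sets, 13 held in every setting that tested their probe set, and that of C1qc did not. With all probe sets tested 13 were called higher and 5 lower, and with a stricter filter (60th percentile) 5 and 1, since fewer probe sets were tested. Leaving out 1 array and filtering anew gave 7 to 11 called higher and 1 to 3 lower. Probe sets bright at 1 age only then failed the filter, and C1qc, still tested, lost its call when P1 replicates 2 and 3 or P21 replicates 1 to 3 were left out 1 at a time. On the probe sets kept with all arrays, a comparison chosen after seeing the data, leaving out any 1 array gave 10 or 11 higher and 3 lower. The same was true without replicate 4 of both ages (11 and 3). The replicate block called 11 and 3, as without it, and changed no myeloid call, while calls over all probe sets went from 7329 to 8805. The median change of the myeloid probe sets, 0.30, was 0.16 with centring and 0.25 to 0.42 when 1 array was left out, and it does not use the filter. With centring the median over all probe sets also moved down, from 0.06 to -0.07. Most of the set lay near or under the filter level, which limits what these arrays can show for the receptors of resident microglia.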
